A study of Mus musculus with 10 samples.

Results

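The genes described are 10 members of the heparan sulfate system that the expression table lists by symbol: the glypicans *Gpc1*, *Gpc3*, *Gpc4* and *Gpc6*, the syndecans *Sdc1* and *Sdc4*, the chain polymerase *Ext1*, the deacetylase and sulfotransferase *Ndst1*, and the 6-O-sulfotransferases *Hs6st1* and *Hs6st2*. All 10 were found among the 34591 genes of the table, each with a value in all 10 libraries. The study asked what the loss of MiDAC, a histone deacetylase complex, does to transcription, and sequenced stranded total RNA of mouse embryonic stem cells (mESCs). WT were parental male C57/BL6 Bruce-4 mESCs, and the knockouts were made in them with CRISPR/Cas9 against either of its subunits *Dnttip1* (clones D2A7 and D1E6) or *Elmsan1* (clones E2E8 and E2G7). All 5 lines grew without feeders in 2iL, a defined medium with LIF and inhibitors of GSK3β and MEK, and each gave 2 libraries. Each clone grew out of a single sorted cell, which the WT line did not, so that effects of cloning, of the clone and of the knockout cannot be told apart. The labels number clone D2A7 as the first *Dnttip1* KO whereas the design text of the series numbers D1E6 so, and clones are therefore named by their codes.

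Heparan sulfate proteoglycans are core proteins that carry long sulfated sugar chains at the cell surface. Glypicans are tethered to the membrane by a lipid anchor and syndecans span it, and their chains bind growth factors such as FGF, WNT, BMP and Hedgehog proteins and help to present them to receptors. The chains are polymerised by EXT1 together with EXT2, N-sulfated by the NDST enzymes and 6-O-sulfated by the HS6ST enzymes, and mESCs need them for FGF signalling on the way out of the naive state.

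Values are FPKM, fragments per kilobase of exon scaled to the size of the library, after each library was divided by a scaling factor between 0.965 and 1.01. Libraries held from 31098583 to 86464598 fragments as recovered from the smallest steps of the FPKM values, with WT the least deeply sequenced. *Dnttip1* RNA was at 8.45 and 8.35 FPKM in WT, 4.57 and 4.55 in D2A7 and 2.58 and 2.60 in D1E6. *Elmsan1*, listed as C130039O16Rik, was at 5.73 and 5.34 FPKM in WT and between 4.62 and 5.13 in the *Elmsan1* KO libraries, all 4 of which were below both WT libraries (log2 fold change -0.19 ± 0.08, adjusted p = 0.188). The lesions are small insertions and deletions in exons, which need not lower the RNA. The 8 markers of naive and core pluripotency summed to between 1222 and 1268 FPKM in WT and between 989.5 and 1226 in the KO libraries. Single markers moved both ways. *Sox2* (179 to 194 FPKM in WT, 132 to 148 in the KO libraries), *Nanog*, *Klf4* and *Esrrb* were below WT in every KO library. *Zfp42* (67.4 to 69.3, and 82.5 to 108) was above WT in every KO library, and *Pou5f1*, *Tfcp2l1* and *Tbx3* overlapped WT. The 6 fibroblast markers summed to at most 0.144 FPKM and the 6 primitive endoderm markers to between 0.614 and 1.41, with *Col3a1* and *Lum* at 0 in WT. *Otx2*, a marker of the primed state, was at 11.1 FPKM in WT, 10.95 in D2A7, 2.90 in D1E6, 0.752 in E2E8 and 2.97 in E2G7. The other primed markers, *Fgf5* and *Pou3f1*, did not follow it and were lowest in D2A7 (0.00697 and 0.225 FPKM, beside 0.0647 and 0.283 in WT). The part of *Otx2* in the differences between clones given below was not tested. Fewer cells of a type and less RNA per cell cannot be told apart in these bulk libraries.

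A gene is termed called when its fold change was at least 1.5 and its unadjusted p under 0.01, the rule the study set, in limma fits across all tested genes. Fold changes are on the scale of log2(FPKM + 0.1) and adjusted p-values are over all genes tested. *Dnttip1* KO against WT set 4 libraries against 2, and 1 of the 10 genes was called higher, *Sdc4*, and 2 lower, *Gpc1* and *Hs6st2*. The background was 3.26% of 17435 tested genes called higher and 3.24% called lower. In *Elmsan1* KO against WT, *Sdc4* was called higher and *Hs6st2* lower, against a background of 2.74% higher and 3.68% lower among 17205 genes. Both comparisons use the same 2 WT libraries. *Sdc4* was thus called in both knockouts, *Gpc1* in 1, and 7 genes in neither. *Hs6st2*, called in both, entered the tests only because its 2 WT libraries reached 0.1 FPKM, so that it had to be lower in the knockouts, and its calls are a description. The median log2 fold change of the 10 genes was -0.19 in *Dnttip1* KO and -0.27 in *Elmsan1* KO, beside 0.02 and 0.00 over all tested genes. The 4 libraries of each knockout came from 2 clones, and these tests took them as independent. Their correlation within clones was estimated at 0.704 in the *Dnttip1* KO fit and 0.768 in the *Elmsan1* KO fit. Over other settings of the limma fit, adjusted p in *Dnttip1* KO reached 0.121 for *Sdc4* and 0.0493 for *Gpc1*, both still called.

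**Figure D1:**
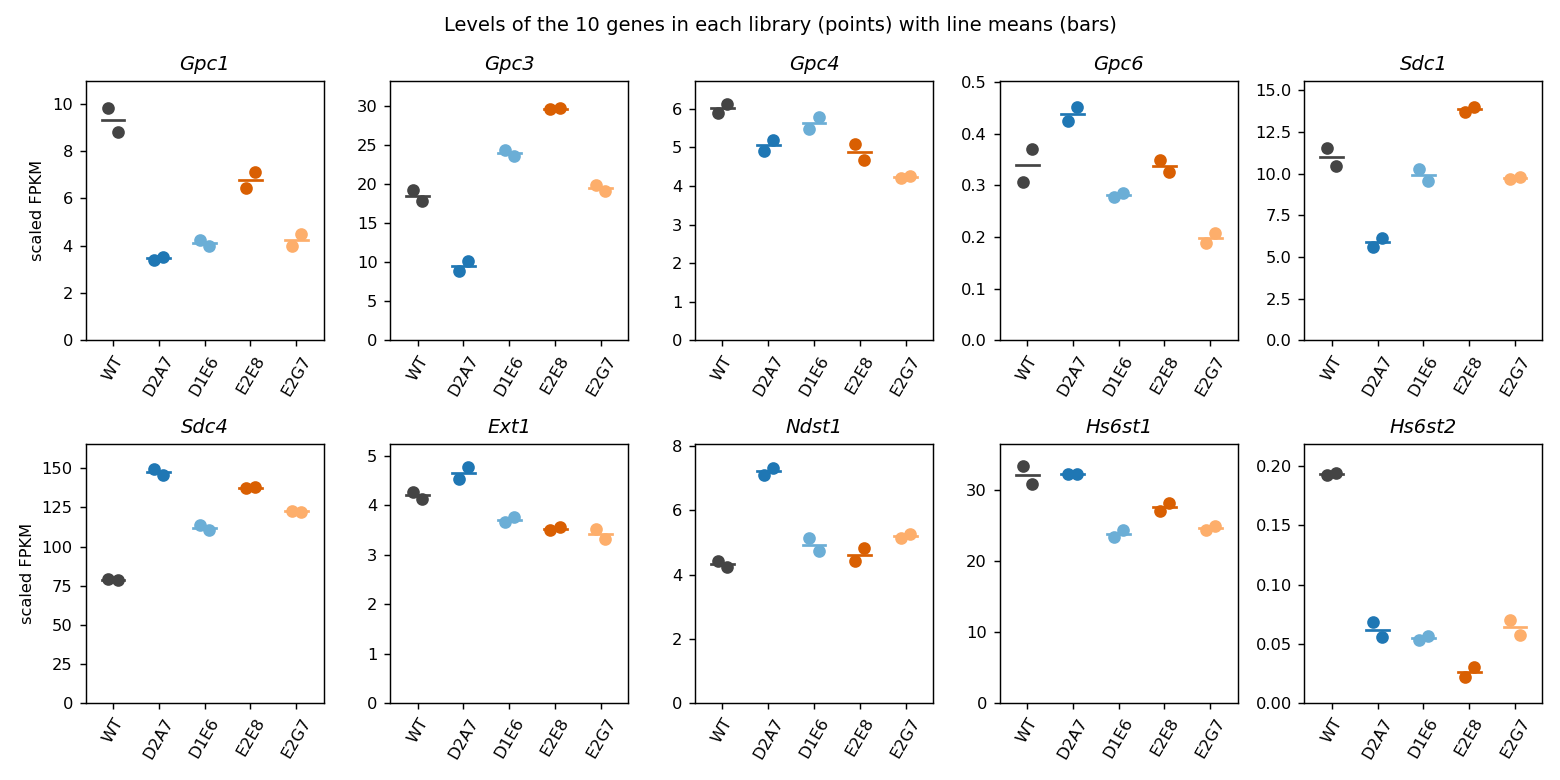
Scaled FPKM (vertical axes, each from 0 and to its own maximum) of the 10 genes in the 5 lines (horizontal axes), with 1 point per library and a bar at each line's mean. All 8 KO libraries lie above both WT libraries for *Sdc4* and below both for *Gpc1*, *Gpc4* and *Hs6st2*, whereas *Gpc3* and *Sdc1* are lowest in D2A7 and highest in E2E8.

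Among the syndecans, *Sdc4* had the highest level of all 10 genes. Syndecan-4 is the family member found in focal adhesions, where it acts with integrins. *Sdc4* (chromosome 2, 164249747 to 164269387 on the minus strand of NCBIM37) was at 79.2 and 78.5 FPKM in WT. The KO libraries were at 149.9 and 146 in D2A7, 114 and 111 in D1E6, 137 and 138 in E2E8, and 123 and 122 in E2G7. Every KO library was above both WT libraries, libraries of a line differed by less than any 2 neighbouring lines, and the order from high to low was D2A7, E2E8, E2G7, D1E6 and WT. The log2 fold change was 0.71 ± 0.15 (SE; adjusted p = 0.0373) in *Dnttip1* KO and 0.72 ± 0.07 (adjusted p = 0.00476) in *Elmsan1* KO. Between the knockouts it differed by -0.01 ± 0.11, with a 95% interval from -0.26 to 0.24. *Sdc4* lies 302 kb from *Dnttip1*, the gene edited in D2A7 and D1E6, and an effect of the edit on *Sdc4* was not tested. Without either WT library the *Dnttip1* KO call was lost, with adjusted p of 0.217 and 0.201, while the log2 fold change stayed at 0.71 and 0.70.

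*Sdc1*, the syndecan typical of epithelia, was lower in D2A7. It was at 11.6 and 10.4 FPKM in WT, 5.60 and 6.17 in D2A7, 10.3 and 9.55 in D1E6, 13.7 and 14.0 in E2E8, and 9.69 and 9.82 in E2G7. Both D2A7 libraries were below those of every other line, E2E8 was above both WT libraries, and the remaining clones lay just below WT. In *Dnttip1* KO the log2 fold change was -0.52 ± 0.27 (adjusted p = 0.275), and in *Elmsan1* KO 0.08 ± 0.18 (adjusted p = 0.808), so that neither passed the test.

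The other syndecans are not among the 10 genes, and their levels set the scale. *Sdc2* was at 22.2 FPKM in WT, 23.1 in D2A7, 15.7 in D1E6, 13.9 in E2E8 and 17.3 in E2G7 (means of 2 libraries). *Sdc3*, the syndecan of the nervous system, was at 1.39 in WT, 2.86 in D2A7, 0.844 in D1E6, 1.34 in E2E8 and 0.495 in E2G7. Summed over the 4 syndecans, the level was 113 FPKM in WT, 179.8 in D2A7, 139 in D1E6, 167 in E2E8 and 150.006 in E2G7. *Sdc4* made up 69.5% of that sum in WT and from 80.9% to 82.6% in the clones, and no library of a clone fell within the WT range.

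Among the glypicans, *Gpc1* was lower than WT in every KO library. Glypican-1 is the family member most studied in neurons and as a co-receptor for FGF. *Gpc1* (chromosome 1, 94728222 to 94756775, plus strand) was at 9.83 and 8.79 FPKM in WT. It was at 3.41 and 3.53 in D2A7, 4.24 and 3.98 in D1E6, 6.46 and 7.11 in E2E8, and 3.99 and 4.48 in E2G7. Clones D2A7, D1E6 and E2G7 were low, E2E8 lay between them and WT, and the ranges of E2G7 and D1E6 overlapped. In *Dnttip1* KO the log2 fold change was -1.28 ± 0.11 (adjusted p = 0.00509). In *Elmsan1* KO it was -0.78 ± 0.25 (adjusted p = 0.0958) and was not called, the 4 libraries coming from clones that differed by 0.67 ± 0.08 (adjusted p = 0.000418). The difference between the knockouts was -0.49 ± 0.18 (adjusted p = 0.296).

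*Gpc3*, which binds Hedgehog and WNT proteins and restrains body growth, was the most abundant glypican. It was at 19.2 and 17.8 FPKM in WT, 8.85 and 10.2 in D2A7, 24.3 and 23.7 in D1E6, 29.7 and 29.7 in E2E8, and 20.0 and 19.1 in E2G7. The clones thus lay on both sides of WT: D2A7 was below it, D1E6 and E2E8 were above it, and E2G7 overlapped it. Neither knockout passed the test, with log2 fold changes of -0.29 ± 0.47 (adjusted p = 0.730) in *Dnttip1* KO and 0.38 ± 0.21 (adjusted p = 0.297) in *Elmsan1* KO. D2A7 and D1E6 differed by -1.33 ± 0.07 (adjusted p = 6.01e-06), the widest gap between clones of a knockout among the 10 genes.

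*Gpc4*, a glypican of the developing brain, was at 5.90 and 6.13 FPKM in WT and between 4.21 and 5.79 in the KO libraries, all 8 below both WT libraries. Its log2 fold changes were -0.17 ± 0.09 (adjusted p = 0.257) in *Dnttip1* KO and -0.40 ± 0.10 (adjusted p = 0.0582) in *Elmsan1* KO, both under 1.5-fold. *Gpc6* was the least abundant of the 4 glypicans, at 0.308 and 0.371 FPKM in WT and between 0.188 and 0.452 in the clones, from 87 to 251 fragments per library. It was called in neither knockout nor in any clone against WT, with log2 fold changes of 0.05 ± 0.23 in *Dnttip1* KO and -0.28 ± 0.25 in *Elmsan1* KO, and the former changed sign under other settings. In E2G7 against WT it was -0.56 ± 0.13 (limma, adjusted p = 0.0111), under 1.5-fold. There it became called in 2 of 10 other settings and in 1 of 10 fits with 1 library left out. E2G7 was lower than D2A7 by 1.5-fold or more (log2 difference -0.85 ± 0.13, adjusted p = 0.00124). Of the glypicans outside the 10 genes, *Gpc2* was between 1.57 and 2.38 FPKM and *Gpc5* had at most 5 fragments in a library.

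The 6 glypicans together summed to 36.0 FPKM in WT, 20.2 in D2A7, 35.9 in D1E6, 44.0 in E2E8 and 29.99 in E2G7. The sum therefore followed no common direction, unlike that of the syndecans. The share of *Gpc1* in the sum was 25.8% in WT and 17.2%, 11.5%, 15.4% and 14.1% in D2A7, D1E6, E2E8 and E2G7. *Gpc3* held 51.4% in WT, 47.1% in D2A7 and from 65.2% to 67.5% in the other clones.

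**Figure D2:**
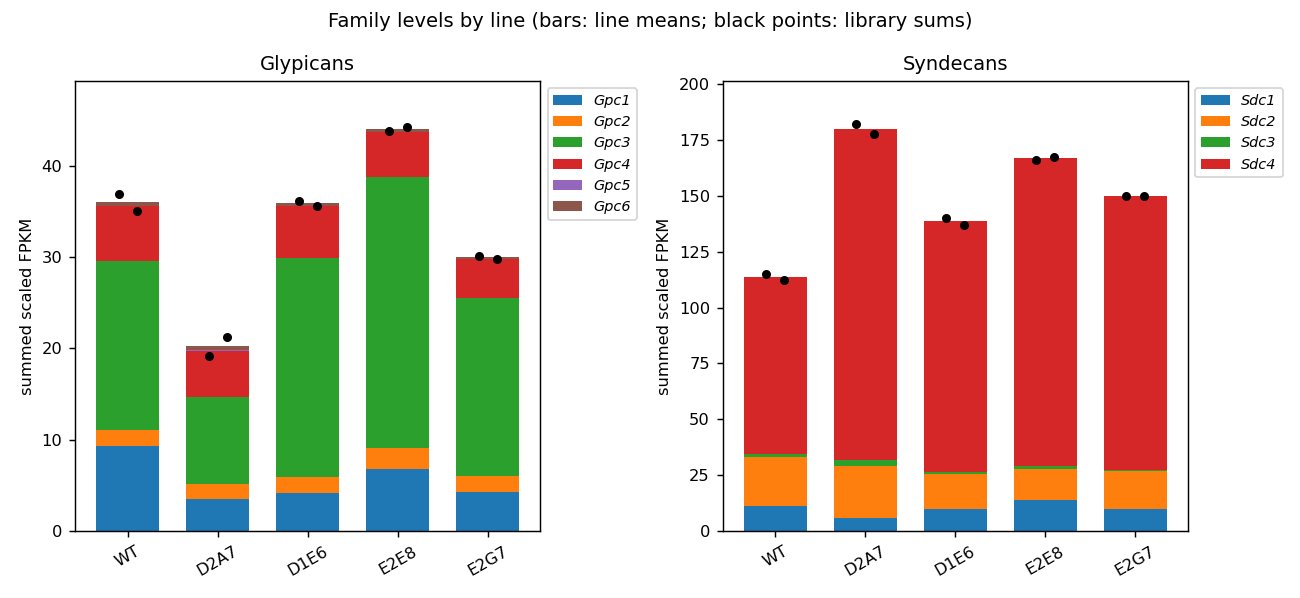
Summed scaled FPKM (vertical axes, from 0) of the 6 glypicans (left) and the 4 syndecans (right) in the 5 lines, stacked by gene as line means, with black points for the sums of single libraries. The syndecan sum is above WT (113 FPKM) in all 4 clones and is mostly *Sdc4*, whereas the glypican sum runs from 20.2 in D2A7 to 44.0 in E2E8, with WT at 36.0.

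Of the enzymes that build and modify the chain, *Hs6st2* was called in the knockouts and *Ext1*, *Ndst1* and *Hs6st1* were not. *Ext1* (polymerase) was at 4.28 and 4.14 FPKM in WT, 4.53 and 4.79 in D2A7, and between 3.32 and 3.76 in the other 3 clones. D2A7 was thus above WT and the others below. The log2 fold changes were -0.02 ± 0.13 (adjusted p = 0.948) in *Dnttip1* KO, with a 95% interval from -0.34 to 0.30, and -0.27 ± 0.08 (adjusted p = 0.0842) in *Elmsan1* KO. Its partner *Ext2* was at 6.55 FPKM in WT and between 5.59 and 7.21 in the clones (line means).

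*Ndst1* was at 4.44 and 4.24 FPKM in WT and 7.10 and 7.32 in D2A7. It was at 5.13 and 4.73 in D1E6, 4.43 and 4.81 in E2E8, and 5.15 and 5.27 in E2G7. Of the 8 KO libraries, 7 were above both WT libraries, and D2A7 stood above all others. The log2 fold change was 0.45 ± 0.20 (adjusted p = 0.213) in *Dnttip1* KO and 0.17 ± 0.10 (adjusted p = 0.291) in *Elmsan1* KO, and neither was called. *Ndst2* was at 2.81 FPKM in WT and between 2.08 and 3.14 in the clones, and *Ndst3* and *Ndst4* had at most 1 fragment in a library.

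*Hs6st1* provided nearly all of the 6-O-sulfotransferase RNA, from 96.4% to 97.4% of the summed FPKM of the 3 genes (line means). It was at 33.4 and 31.0 FPKM in WT, 32.3 and 32.4 in D2A7, 23.4 and 24.4 in D1E6, 27.1 and 28.3 in E2E8, and 24.5 and 24.998 in E2G7. D2A7 lay within the WT range and the other 3 clones below it. The log2 fold changes were -0.21 ± 0.16 (adjusted p = 0.445) in *Dnttip1* KO and -0.30 ± 0.08 (adjusted p = 0.0601) in *Elmsan1* KO.

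*Hs6st2* (chromosome X, 48740389 to 49035033, minus strand) was at a low level throughout. It was at 0.192 and 0.194 FPKM in WT, from 45 and 58 fragments, and between 0.0219 and 0.0700 in the KO libraries, from 13 to 44 fragments. E2E8 was the lowest line, with 0.0219 and 0.0303, while the ranges of D2A7 overlapped those of D1E6 and of E2G7. All 8 KO libraries were below both WT libraries. The log2 fold change was -0.89 ± 0.18 (adjusted p = 0.0381) in *Dnttip1* KO and -1.03 ± 0.22 (adjusted p = 0.0374) in *Elmsan1* KO. The added 0.1 is of the size of these values and understates the change, which was -1.58 and -1.98 with 0.01 added and -0.17 and -0.19, below 1.5-fold, with 1 added. On the recovered fragments, with voom, it was -1.71 and -2.21 (limma, adjusted p = 0.00714 and 0.0306). The voom fit kept the 0.1 FPKM filter, which *Hs6st2* passed through WT alone, so that these values too are a description. With a correlation within clones its call was lost in both knockouts (adjusted p = 0.422 and 0.416).

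The upstream sequences of the genes called in both knockouts are shown with those of *Gpc3* and *Gpc4*, the neighbours of *Hs6st2*, since they differ in base composition. RefSeq start sites on GRCm38.p6 were used for 6 of the 10 genes, *Gpc3*, *Gpc4*, *Sdc1*, *Sdc4*, *Hs6st1* and *Hs6st2*. No start was found for *Gpc1*, *Gpc6* and *Ext1*, and *Ndst1* was left out of the search. Each line gives the 250 bases before the start, on the gene's strand, in lower case, with capitals for GGGCGG (a GC box) or TATAA on either strand, overlapping matches merged. The windows, all on minus-strand genes, were chr2:164443189-164443438 for *Sdc4*, chrX:51681603-51681852 for *Hs6st2*, chrX:52613975-52614224 for *Gpc3* and chrX:52164924-52165173 for *Gpc4*.
Sdc4: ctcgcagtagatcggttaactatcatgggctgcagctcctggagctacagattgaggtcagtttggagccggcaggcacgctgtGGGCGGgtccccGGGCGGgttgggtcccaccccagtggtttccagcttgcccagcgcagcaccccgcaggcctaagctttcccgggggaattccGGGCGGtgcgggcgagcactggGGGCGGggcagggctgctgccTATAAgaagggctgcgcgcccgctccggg
Hs6st2: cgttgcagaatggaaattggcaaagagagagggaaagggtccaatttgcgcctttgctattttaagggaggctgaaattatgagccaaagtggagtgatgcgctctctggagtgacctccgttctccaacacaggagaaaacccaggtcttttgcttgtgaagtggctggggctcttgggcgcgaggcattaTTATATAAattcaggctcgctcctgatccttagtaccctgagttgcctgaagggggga
Gpc3: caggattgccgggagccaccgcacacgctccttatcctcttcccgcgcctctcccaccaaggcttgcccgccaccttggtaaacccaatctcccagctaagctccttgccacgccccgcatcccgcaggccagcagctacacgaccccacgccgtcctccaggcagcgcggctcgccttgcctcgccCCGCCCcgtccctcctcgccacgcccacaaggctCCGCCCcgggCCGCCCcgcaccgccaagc
Gpc4: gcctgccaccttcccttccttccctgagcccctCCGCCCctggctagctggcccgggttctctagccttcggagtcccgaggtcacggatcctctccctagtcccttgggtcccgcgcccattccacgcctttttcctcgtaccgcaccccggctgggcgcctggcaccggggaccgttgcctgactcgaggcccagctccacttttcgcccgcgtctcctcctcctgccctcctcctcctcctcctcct
The window of *Sdc4* was 68% G and C and held 4 matches to the GC box and 1 to TATAA, the latter close to the start. That of *Hs6st2* was 50% G and C, with 2 overlapping matches to TATAA and none to the GC box. The second start listed for *Hs6st2* had 72% G and C and neither motif. *Gpc3* (71.6% G and C) and *Gpc4* (68.4%) had 3 and 1 GC boxes and no TATAA. Of all 32851 windows of this length, 32.7% held a GC box and 22.8% held TATAA, with a median of 52.4% G and C. A match describes the letters only, and these libraries do not show which start was used.

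Set against WT one at a time, in a fit of all 10 libraries with 17870 genes tested, the clones showed which of the 10 genes moved where. These p-values rest on the spread between libraries of a line, which may be technical. D2A7 had 2 of the 10 genes called higher, *Sdc4* (log2 fold change 0.91 ± 0.03) and *Ndst1* (0.72 ± 0.06), where 10.8% of all genes were. It had 4 called lower, where 5.48% of all genes were: *Gpc1* (-1.40 ± 0.08), *Gpc3* (-0.95 ± 0.07), *Sdc1* (-0.89 ± 0.06) and *Hs6st2* (-0.86 ± 0.17). D1E6 had none called higher (5.04% of all genes), *Sdc4* being under 1.5-fold there (0.51 ± 0.03, adjusted p = 9.13e-06), and 2 called lower (5.94%), *Gpc1* (-1.16 ± 0.08) and *Hs6st2* (-0.92 ± 0.17).

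E2E8 had *Gpc3* (0.68 ± 0.07) and *Sdc4* (0.80 ± 0.03) called higher, where 10.2% of all genes were, and *Hs6st2* (-1.22 ± 0.17) called lower, where 5.92% were. Its *Gpc1* change of -0.45 ± 0.08 had an adjusted p of 0.00229 and stayed under 1.5-fold. E2G7 had *Sdc4* (0.63 ± 0.03) called higher (3.55% of all genes) and *Gpc1* (-1.12 ± 0.08) and *Hs6st2* (-0.84 ± 0.17) called lower (6.4%). Over the 4 clones, 5 calls were higher and 9 lower. *Sdc4* and *Gpc1* were called in 3 clones each. Of the 9 lower calls, 4 were those of *Hs6st2*, which entered this fit too through its WT libraries alone.

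**Figure D3:**
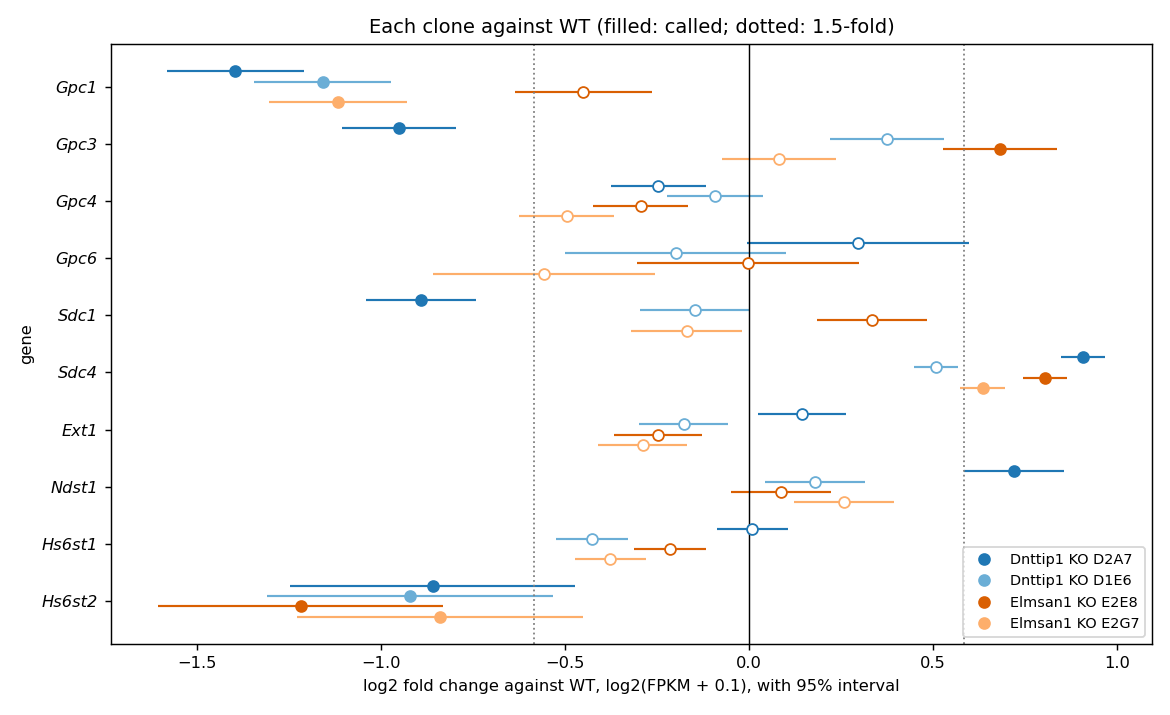
Log2 fold change of each clone against WT (horizontal axis, on log2(FPKM + 0.1)) for the 10 genes (vertical axis), with 95% intervals; filled points were called and dotted lines mark 1.5-fold. The 4 clones lie on the same side of 0 for *Sdc4*, *Gpc1*, *Gpc4*, *Hs6st2* and *Ndst1*, and on both sides for *Gpc3*, *Gpc6*, *Sdc1*, *Ext1* and *Hs6st1*. The intervals of *Gpc4* in D1E6 and of *Ndst1* in E2E8 include 0, and the side of *Hs6st2* was fixed by the filter.

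The clones of a knockout differed from each other in some of these genes. D2A7 against D1E6 had none of the 10 genes called higher (9.36% of all genes) and 2 lower (3.74%), *Gpc3* by -1.33 ± 0.07 and *Sdc1* by -0.74 ± 0.06. E2E8 against E2G7 had 2 called higher (9.55%), *Gpc1* by 0.67 ± 0.08 and *Gpc3* by 0.60 ± 0.07, and none lower (2.95%). At an adjusted p under 0.05 in limma, whatever the fold change, D2A7 against D1E6 had 5 of the 10 genes higher and 3 lower. Of all 17870 genes, 4387 were higher and 3372 lower. E2E8 against E2G7 had 7 higher and 1 lower, beside 4806 and 3601 of all genes. *Dnttip1* KO against *Elmsan1* KO, with 4 libraries each, gave no call among the 9 genes that passed the filter, against 1.11% of 17600 genes higher and 0.415% lower. In that limma fit *Gpc1*, *Gpc4*, *Sdc1* and *Ext1* had an unadjusted p under 0.05, with adjusted p between 0.296 and 0.306. A fit of all 10 libraries that takes its spread from within clones called 2 of the 9 genes lower. Of all 17600 genes, it called 865 higher and 403 lower. *Hs6st2* did not pass the filter there.

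Over the 10 libraries, which come from 5 lines, *Gpc3* and *Sdc1* followed each other most closely of the 45 pairs (Pearson r = 0.94 on log2 values). *Sdc1* and *Ndst1* ran most against each other (r = -0.89). Of genes averaging 1 FPKM or more, those most like *Sdc4* were *Atp2a3*, a calcium pump, at 5.43 FPKM in WT and from 9.07 to 14.2 in the clones (r = 0.995), and *Csnk1e*, a casein kinase, at 5.09 and from 7.39 to 10.6 (r = 0.994). Those most like *Hs6st2* were 1700034H14Rik, at 11.9 in WT and from 4.78 to 6.14 in the clones (r = 0.985), and *Fbxw7*, a ubiquitin ligase subunit, at 8.78 and from 6.61 to 7.27 (r = 0.984). With the lines as the main source of variation, these values describe 5 points measured in duplicate.

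*Hs6st2*, *Gpc4* and *Gpc3* are neighbours on the X chromosome, all on the minus strand. *Gpc3* and *Gpc4* are 107 kb apart, and *Gpc4* and *Hs6st2* are 371 kb apart, with *Usp26* and 1700080O16Rik as the tested genes between them. *Usp26*, a ubiquitin protease best known from the testis and 72.1 kb from *Hs6st2*, was at 1.21 FPKM in WT, 0.437 in D2A7, 0.417 in D1E6, 0.418 in E2E8 and 0.515 in E2G7. It was called lower in both knockouts, with log2 fold changes of -1.31 ± 0.14 (adjusted p = 0.00642) and -1.21 ± 0.17 (adjusted p = 0.0106), and in all 4 clones. 1700080O16Rik was at 0.128 FPKM in WT and at most 0.0341 in the clones (line means), and like *Hs6st2* passed the filter through WT. With a correlation within clones it was not called (adjusted p = 0.550 and 0.478). *Gpc4*, 80.2 kb further on, was lower by less than 1.5-fold and *Gpc3* moved both ways, as given above. Outside the stretch, *Rap2c* had log2 fold changes between 0.00 and 0.15, and 2610018G03Rik was lower in D2A7 (-1.62) and between -0.24 and 0.06 in the other clones. The microRNA genes *Mir363* and *Mir92-2* beyond *Gpc3* had no adjusted p under 0.05 in any clone. Over 422 genes of the X chromosome with a mean of at least 1 FPKM, the median log2 fold change lay between -0.10 and -0.06 in the 4 clones. It lay between -0.07 and 0.02 on the other chromosomes that hold one of the 10 genes. On chromosome 8, which holds none of them, it was between 0.35 and 0.37 in all 4 clones, and on chromosome 6, which holds none either, it was -0.08 in D2A7 and between 0.29 and 0.42 in the other clones. The part of these whole-chromosome shifts in the differences from WT and between clones was not tested.

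**Figure D4:**
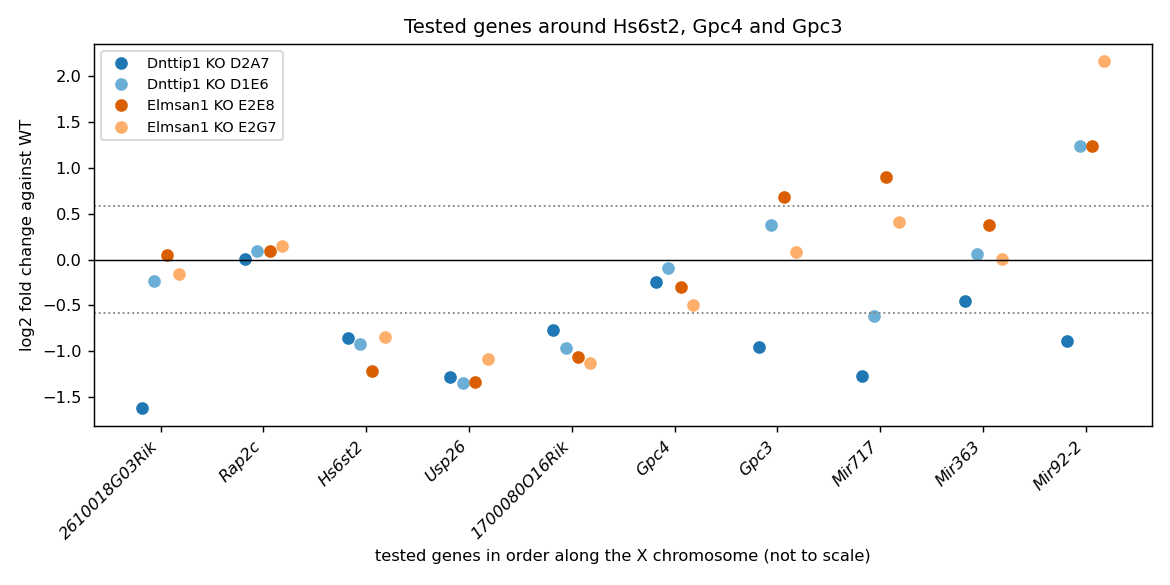
Log2 fold change of each clone against WT (vertical axis, on log2(FPKM + 0.1)) for the tested genes around *Hs6st2*, *Gpc4* and *Gpc3*, in their order along the X chromosome (horizontal axis, not to scale); dotted lines mark 1.5-fold. The points of *Hs6st2*, *Usp26* and 1700080O16Rik lie below the 1.5-fold line in all 4 clones, and those of *Gpc3* spread from -0.95 to 0.68.

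The wider pathway was read from 62 genes in 6 lists, of which 50 were tested in each knockout. In *Dnttip1* KO, 3 were called higher (6% of those tested) and 4 lower (8%), beside 3.26% and 3.24% of all tested genes. In *Elmsan1* KO, 2 (4%) were called higher and 4 (8%) lower, beside 2.74% and 3.68%. The lower calls of both knockouts include *Hs6st2*, which passed the filter through WT alone and so had to be lower. The lists also hold the genes described above and were chosen with earlier results of these data known. These shares are therefore a description, and an excess of lower calls was not tested. With a correlation within clones the calls fell to 1 higher and 2 lower in *Dnttip1* KO and to 2 higher and 1 lower in *Elmsan1* KO. Calls over all genes fell too, to 283 higher and 255 lower of 17435 and to 233 higher and 253 lower of 17205. The calls of *Tgfbr3* were then lost in both knockouts, that of *Hs3st1* in *Elmsan1* KO, and those of *Hs3st3b1* and *Sgsh* in *Dnttip1* KO (the last 2 with adjusted p = 0.248 and 0.289 with an estimated correlation). The median log2 fold change over the lists was -0.09 and -0.02. Of the 15 core proteins tested, *Sdc4* was higher in both knockouts and *Tgfbr3* (betaglycan, a co-receptor of TGF-beta) lower in both, at 0.718 FPKM in WT and between 0.190 and 0.318 in the KO libraries. None of the 6 linker enzymes, which start the chain on the core protein, and none of the 5 chain polymerases was called in either knockout by limma. Of the 9 modifying enzymes tested, *Hs3st3b1*, a 3-O-sulfotransferase, was higher in both. It was at 1.34 and 1.44 FPKM in WT and between 1.99 and 2.85 in the KO libraries, with log2 fold changes of 0.73 ± 0.19 (adjusted p = 0.0618) and 0.74 ± 0.11 (adjusted p = 0.0131). *Hs3st1* was called lower in *Elmsan1* KO, at 0.245 FPKM in WT and between 0.0778 and 0.126, and in *Dnttip1* KO it was at 0.245 in D2A7 and 0.0700 in D1E6 and was not called.

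Of 4 genes tested for precursor supply, *Ugdh*, which makes the UDP-glucuronic acid that both heparan and chondroitin sulfate are built from, was lower in both knockouts. It was at 13.3 and 13.8 FPKM in WT, between 6.55 and 9.37 in *Dnttip1* KO and between 7.71 and 8.47 in *Elmsan1* KO. Its log2 fold changes were -0.78 ± 0.17 (adjusted p = 0.0405) and -0.74 ± 0.07 (adjusted p = 0.00365). Of 11 genes of remodelling and degradation, the lysosomal sulfatase gene *Sgsh* was called higher in *Dnttip1* KO, at 0.891 and 0.740 FPKM in WT and between 1.25 and 1.98 (log2 fold change 0.94 ± 0.22, adjusted p = 0.0499). In *Elmsan1* KO it was 1.72 in E2E8 and 0.856 in E2G7 and was not called.

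The chondroitin sulfate genes served for comparison. In *Dnttip1* KO, 0 of 20 tested were called higher and 3 lower, *Chst7*, *Chst11* and *Dsel*, and in *Elmsan1* KO 0 of 21 higher and 1 lower, *Dsel*, beside the same 3.24% and 3.68% of all genes called lower. With a correlation within clones, 1 lower call was left in *Dnttip1* KO and 0 in *Elmsan1* KO, where that of *Dsel* was lost (adjusted p = 0.317 with an estimated correlation). Of all genes, 255 of 17435 and 253 of 17205 were then called lower. *Dsel*, a dermatan sulfate epimerase, was at 3.21 and 3.28 FPKM in WT and between 1.83 and 2.37 in the KO libraries, with log2 fold changes of -0.69 ± 0.11 (adjusted p = 0.0216) and -0.61 ± 0.12 (adjusted p = 0.0288).

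**Figure D5:**
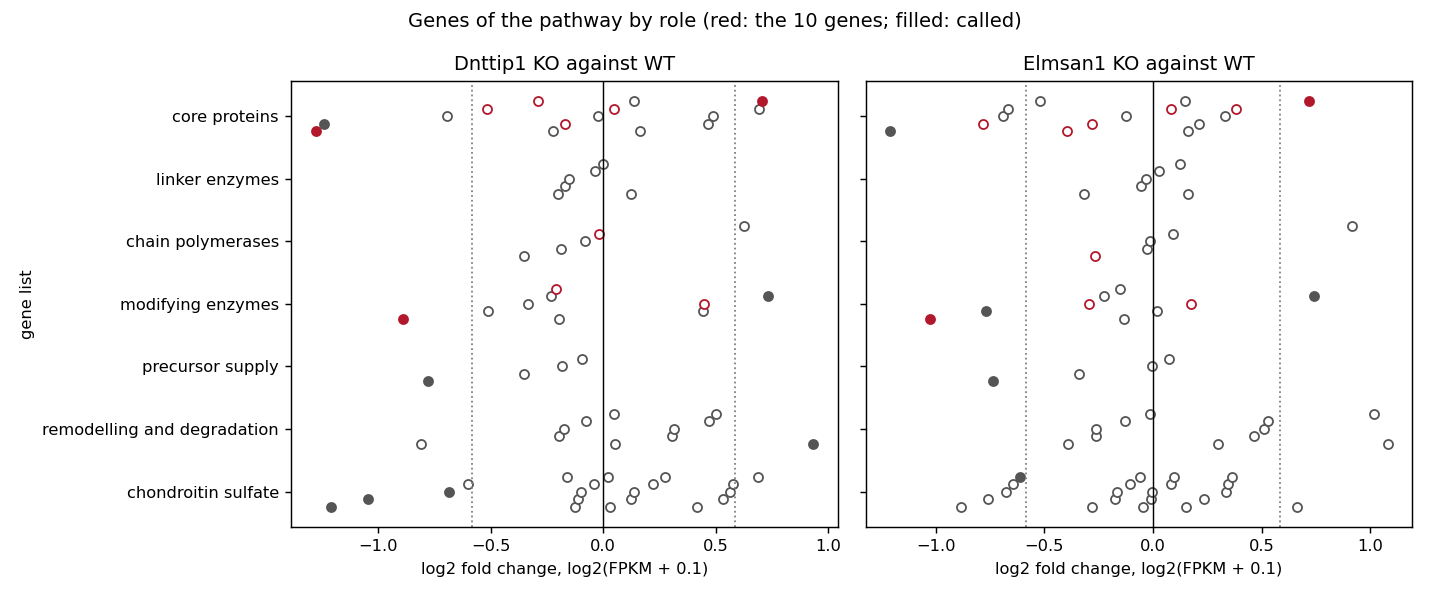
Log2 fold change against WT (horizontal axes, on log2(FPKM + 0.1)) of every tested gene of the 6 heparan sulfate lists and the chondroitin sulfate list (vertical axis, by role; vertical offsets within a list carry no value) in *Dnttip1* KO (left) and *Elmsan1* KO (right). Red points are the 10 genes, filled points were called and dotted lines mark 1.5-fold; called points are few in each list, and the linker enzymes and chain polymerases have none.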

How the data were processed

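RNA of 10 mESC libraries was measured by RNA-seq, 2 each from WT and from 4 KO clones, grouped by the genotype and clone in their labels. The authors aligned paired-end stranded reads to NCBIM37, counted fragments per gene with HT-seq and deposited FPKM values. The annotation named in the methods is GENCODE vM20, but GENCODE vM1 holds 97.2% of the 34591 identifiers, and it gave positions and exon lengths. The submitters' processing notes also name edgeR 3.16.5, limma and R 3.3.1. Whether counting used the strand, and which sequencer gave which library, is not given in the sources used here. Annotated genes overlapping the 10 genes had at most 0.813 FPKM.

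FPKM of low genes times exon length were whole multiples of 1 step per library for 98.3% to 98.6% of values under 100 steps (within 0.05 of a whole number), which gave fragments and library totals. FPKM were divided by a median-ratio factor per library. A gene entered a fit if 2 or more of its libraries reached 0.1 FPKM. Values on the scale of log2(FPKM + 0.1) went into limma (version 3.58.1, R 4.3.3; two-sided, with a variance trend), and p-values were adjusted by the Benjamini-Hochberg method across every gene in the fit. Knockouts were compared in fits of their own libraries, and lines in a fit of all 10. The fits were tested on simulated data. Intervals are those of the model. Alternatives are in the closing section.

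The 10 genes and the gene lists were chosen with earlier results of these data known. Besides the 10 genes, the text names list genes averaging 1 FPKM or more that were called in a knockout, other family members, the X chromosome neighbours, the 2 genes most correlated with each member called in both knockouts, and, after their values were seen, list genes under 1 FPKM that belong to a printed count. Promoter windows are from RefSeq (GRCm38.p6). Protein sequences were not used here. Figures were made with Python 3.11.15 and matplotlib 3.10.9.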

Additional observations from a re-analysis of the deposited data

Results flagged for a closer look

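Differences between clones of the same knockout passed the test in 4 cases. In *Dnttip1* KO, *Gpc3* was lower in D2A7 than in D1E6 by 1.33 on the log2 scale (log2 difference -1.33, adjusted p = 6.01e-06), and *Sdc1* likewise (-0.74, adjusted p = 7.04e-05). In *Elmsan1* KO, *Gpc1* (0.67, adjusted p = 0.000418) and *Gpc3* (0.60, adjusted p = 0.00028) were higher in E2E8 than in E2G7. In each comparison both libraries of one clone were on the same side of both libraries of the other. The cause of these differences was not tested. None of the 10 genes had a library that stood apart from the others of its knockout by Dixon's criterion.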

How the results depend on the processing

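Leaving out 1 library at a time gave from 1 to 3 called genes in *Dnttip1* KO (3 with all libraries), from 1 to 3 in *Elmsan1* KO (2), from 0 to 1 between the knockouts (0), from 10 to 14 over the clones (14) and from 3 to 5 between clones (4). Each WT library, when left out, took *Hs6st2* below the filter in both knockouts and ended the *Sdc4* call in *Dnttip1* KO. In *Elmsan1* KO, 1 gene was left, *Sdc4*, with a pseudocount of 1, with genes averaging under 1 FPKM left out, and with a correlation within clones. *Gpc1* became called there after quantile normalization (-0.80), in the fit of all 10 libraries (-0.78) and without the second E2E8 library (-0.92). That fit of all 10 libraries called 2 genes between the knockouts, against 0. Of all 17600 genes, it called 865 higher and 403 lower there, against 195 and 73. Between clones, a pseudocount of 1 left 2 calls and voom on recovered fragments gave 7, against 4. In the knockouts against WT, log2 fold changes near 0 changed sign for 3 of the 10 genes, none of them called there, and uncalled values near 0 in other comparisons did so too. *Gpc6* in *Dnttip1* KO was -0.0038 after quantile normalization and ran from -0.0566 to 0.153 with 1 library left out. *Ext1* in *Dnttip1* KO was 0.0083 with FPKM as deposited and ran from -0.0839 to 0.0424 with 1 library left out. *Sdc1* in *Elmsan1* KO ran from -0.0068 to 0.169 with 1 library left out. Samples were not paired by replicate number, and the deviations of first replicates correlated between -0.14 and 0.19 over 12216 genes. With 2 libraries per line, these values do not show whether some same-numbered libraries were handled together. The replicate block left the called counts at 3, 2, 0, 14 and 4. The heparan sulfate lists had 7 calls in *Dnttip1* KO, 3 with a correlation within clones and 11 in the fit of all 10 libraries, and 6, 3 and 12 in *Elmsan1* KO. Calls over all genes moved the same way. In *Dnttip1* KO they were 569 higher and 565 lower of 17435, then 283 and 255, and 1240 and 921. In *Elmsan1* KO they were 472 higher and 633 lower of 17205, then 233 and 253, and 1009 and 949. The cause of these changes was not tested.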
